A study of Mus musculus with 19 samples.

Results

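The genes Wap, Glycam1, Spp1 and Cel encode proteins that the mammary epithelium secretes into milk outside the casein family, and they lie on 4 chromosomes, of which only that of Spp1 also carries the casein locus. Members were taken by their symbols, as 4 of the 24421 genes in the counts, and each passed the filter of at least 10 reads in total. Total RNA-seq was made from frozen mammary glands of C57BL/6 mice (substrain N in the methods of the study). WT tissue gave 3 libraries at pregnancy day 6 (p6) and 3 at p18. Tissue labelled Enhancer-delS1-4 was taken to be the CRISPR/Cas9 deletion of a super-enhancer in the casein locus (ΔSE), a name the labels do not use, so each ΔSE value rests on that reading. It gave 4 libraries at p6 and 4 at p18. The label delCsn1s2b-E, for mice without an enhancer of Csn1s2b, applied to 3 libraries and delCsn3-PE, for mice that lack the Csn3 proximal enhancer, to 2, all with a p18 label. The extraction notes of these 5 libraries name WT tissue of lactation, so their stage is uncertain wherever p18 is written for them. The study made its deletions in fertilized eggs and used homozygous mutants, so that they were not restricted to the mammary gland. It describes no deletion of a Csn3 enhancer, so the making and zygosity of the delCsn3-PE mice are not given there. Per the methods of the study the mice were young adult females.

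Milk proteins are made by luminal alveolar cells, which expand during pregnancy and switch on their secretory genes in answer to prolactin, glucocorticoid and progesterone withdrawal. Prolactin acts through STAT5, which binds GAS motifs, and NFIB and the glucocorticoid receptor share many of its sites in this tissue. Wap encodes whey acidic protein, the main whey protein of mouse milk and the founding member of the family of four-disulfide core (WFDC) proteins. Glycam1 encodes a small mucin-like glycoprotein, first described on the high endothelial venules of lymph nodes as a ligand of L-selectin and secreted in large amounts into milk. Spp1 encodes osteopontin, an acidic phosphoprotein that binds integrins and CD44 and is also made by macrophages and bone cells. Cel encodes the bile salt-stimulated lipase, which digests milk fat in the gut of the young and is also made by the exocrine pancreas.

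On GRCm38 (the build of mm10), with GENCODE vM21 gene models, Wap lies at chr11:6635482-6638637 on the minus strand (4 exons), Glycam1 at chr15:103562759-103565081 on the minus strand (4 exons), Spp1 at chr5:104435118-104441050 on the plus strand (6 exons) and Cel at chr2:28555795-28563403 on the minus strand (11 exons). Exon numbers refer to the principal coding transcript. Cel overlaps the antisense gene Gm13381 and Spp1 overlaps Gm42793 on its own strand. Neither the annotation nor the use of strand in counting is given in the sources used here. How reads in these overlaps were assigned is therefore not known, and strand could not separate Spp1 from Gm42793.

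Since the study addressed enhancers bound by STAT5 and NFIB, the 250 bases before each RefSeq start (GRCm38.p6) are shown to place these motifs at genes outside the deleted locus. Capitals mark a GAS motif (TTCNNNGAA) or an NFI motif (TGGCA, which reads TGCCA on the other strand), searched on both strands. The sequences run 5′ to 3′ on the strand of the gene.
Wap, chr11:6638650-6638899, minus strand: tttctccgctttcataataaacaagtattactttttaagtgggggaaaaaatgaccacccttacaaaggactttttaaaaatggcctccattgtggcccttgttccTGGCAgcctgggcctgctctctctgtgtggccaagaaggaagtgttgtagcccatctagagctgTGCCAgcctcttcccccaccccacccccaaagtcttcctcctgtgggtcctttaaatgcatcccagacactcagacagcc
Glycam1, chr15:103565082-103565331, minus strand: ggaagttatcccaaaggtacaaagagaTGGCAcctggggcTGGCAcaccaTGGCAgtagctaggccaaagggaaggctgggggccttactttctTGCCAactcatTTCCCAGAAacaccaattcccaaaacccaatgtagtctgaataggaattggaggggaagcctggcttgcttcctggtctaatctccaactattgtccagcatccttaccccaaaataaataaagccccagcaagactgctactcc
Spp1 start 1, chr5:104434861-104435110, plus strand: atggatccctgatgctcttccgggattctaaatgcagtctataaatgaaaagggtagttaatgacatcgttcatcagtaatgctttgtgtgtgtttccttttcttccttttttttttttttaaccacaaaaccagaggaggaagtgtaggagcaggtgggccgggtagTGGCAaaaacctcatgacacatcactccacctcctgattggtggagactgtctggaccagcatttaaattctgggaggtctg
Cel, chr2:28563404-28563653, minus strand: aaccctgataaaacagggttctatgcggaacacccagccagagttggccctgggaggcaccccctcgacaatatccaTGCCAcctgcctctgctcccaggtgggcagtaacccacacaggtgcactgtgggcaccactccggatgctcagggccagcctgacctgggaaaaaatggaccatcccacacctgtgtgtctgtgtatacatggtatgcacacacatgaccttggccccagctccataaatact

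Within these windows a GAS motif was found only upstream of Glycam1, as TTCCCAGAA at -145 to -137. Of all 32851 promoter windows of this length, 7.02% hold one. NFI motifs were found upstream of Wap (starting at -144 and -80), Glycam1 (-223, -210, -200 and -156), the first start of Spp1 (-82) and Cel (-173), and 42.8% of all windows hold at least one. None of these matches overlapped another. The window before the second RefSeq start of Spp1 held neither motif, and no window of the 4 genes held the form of GAS with a spacer of 4 bases (TTCNNNNGAA), which 5.85% of all windows hold. A GAS motif together with an NFI motif, as upstream of Glycam1, occurred in 3.02% of all windows. These are matches of letters in a short window, not measured binding. The study cites earlier deletions of STAT5 sites in the Wap locus, which defined an enhancer that activation of the gene in pregnancy requires. A window without a GAS motif therefore does not mean a gene without STAT5 sites.

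**Figure D1:**
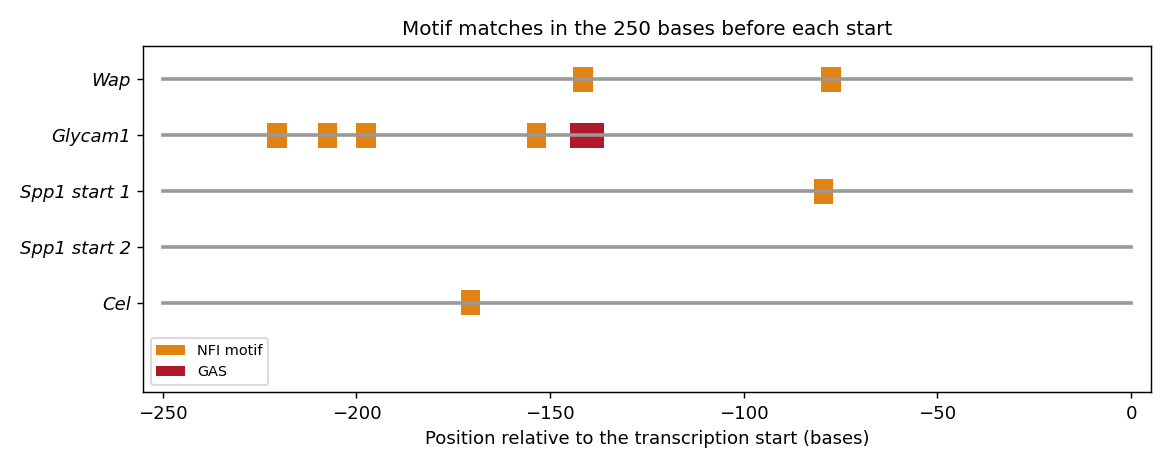
Motif matches in the 250 bases before the RefSeq start sites of Wap, Glycam1, Spp1 (2 starts) and Cel; the x axis is the distance from the start in bases, and bars mark GAS motifs (red) and NFI motifs (orange). The single GAS match, at -145 to -137, is upstream of Glycam1, next to an NFI motif at -156.

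WT and ΔSE libraries held 12335272 to 20525175 reads in genes, of which the ribosomal RNA precursor Rn45s took 21.7 to 42.9%, and those of the 2 single-enhancer lines 26848053 to 30329601, with a share of Rn45s of 0.0765 to 0.924%. Levels are normalized CPM, the reads of a gene in each 1e6 reads after scaling by the trimmed mean of M-values, and WT and ΔSE libraries were scaled together. Summed luminal markers (6 genes) were 823 to 1028 normalized CPM in WT tissue and 477 to 905 in ΔSE tissue at p6, and 1475 to 1940 and 1575 to 1848 at p18, so luminal RNA was present in every library. In whole tissue, fewer cells of a type and less RNA per cell cannot be told apart. Skeletal muscle markers (6 genes) summed to 3.07 in WT replicate 1 at p18 but to 890 and 1337 in replicates 2 and 3, against 4.88 to 10.2 in ΔSE tissue at p18. The 8 exocrine pancreas markers summed to 0.313 to 7.68 over the WT and ΔSE libraries with 4 to 7 of the 8 at 0, the 3 markers of high endothelial venules other than Glycam1 to 0.784 to 5.53, and 7 lymphocyte markers to 3.18 to 8.70. Macrophage markers (6 genes) were more abundant, at 116 to 410, and adipocyte markers (6 genes) summed to 1117 to 3424. At p6, WT replicate 2 was the lowest WT library for Spp1 and Cel, WT replicate 1 the highest for Spp1 and ΔSE replicate 4 the highest ΔSE library for Wap, and results that rest on them are given with and without them.

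In WT tissue all 4 genes rose from p6 to p18, most steeply Wap (1076-fold) and least Cel (7.91-fold). A call here is a Benjamini-Hochberg adjusted p under 0.05 in the edgeR quasi-likelihood test over 17844 genes, and 29.6% of all genes were called between these stages (17.2% higher at p18). The share of the 4 genes in all reads outside Rn45s went from 0.00534 to 0.0291% at p6 to 2.26 to 4.14% at p18.

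Wap measured 8.25, 8.75 and 2.95 normalized CPM in the WT libraries at p6 and 10702.5, 6398 and 4236 at p18. Each p6 library was thus near the bottom of the scale, with 64 to 176 reads, and each p18 library above 4000. The log2 fold change of Wap was 10.07 (SE 1.07, adjusted p = 8.2e-06, edgeR), the largest rise by fold of the 17844 genes in that fit.
Glycam1 measured 36.16, 12.48 and 16.00 normalized CPM at p6 and 17717.5, 15235 and 11148 at p18. It was second by fold, with a log2 change of 9.42 (SE 0.65, adjusted p = 3.2e-07, edgeR), a 686-fold rise.
Spp1 measured 91.2, 7.66 and 25.0 at p6 and 4000.1, 2267 and 1417 at p18. The log2 fold change was 5.96 (SE 0.80, adjusted p = 5.9e-05, edgeR), the rank by fold 19. Its p6 libraries differed 11.9-fold from lowest to highest, whereas those of Glycam1 differed 2.90-fold.
Cel measured 58.2, 1.99 and 62.8 at p6 and 377, 382 and 212 at p18. Its log2 fold change was 2.98 (SE 0.71, adjusted p = 0.005, edgeR), and its p6 libraries spanned a 31.6-fold range because replicate 2 lay far below the others. For none of the 4 genes did the stages overlap, as was true in the upward direction for 22.0% of all genes. Without WT replicate 2 at p6 the rises of Spp1 and Cel were 5.45 and 2.40 on the log2 scale and both remained called, and without WT replicate 1 they were 7.29 and 3.32, again called.

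**Figure D2:**
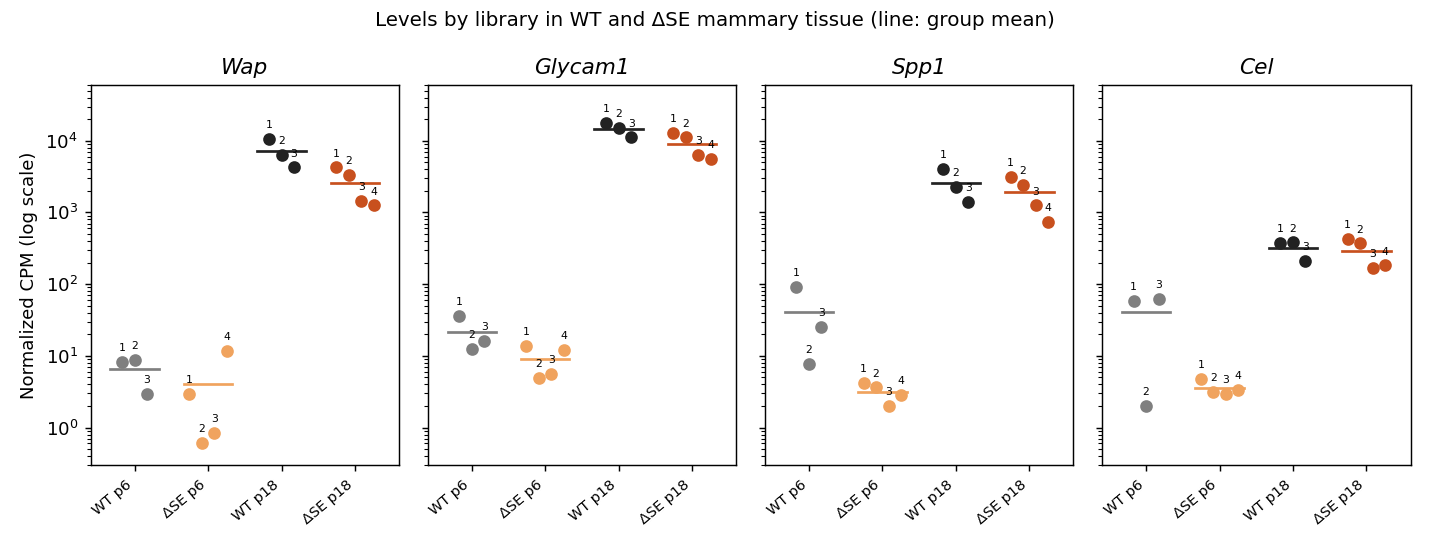
Normalized CPM (log axis) of Wap, Glycam1, Spp1 and Cel in each WT (black, grey) and ΔSE (orange) library at p6 and p18; points carry the replicate number and lines are group means. At p18 the WT and ΔSE points overlap for all 4 genes, and at p6 Spp1 does not exceed 4.25 in ΔSE tissue whereas its lowest WT value is 7.66.

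Levels can be compared between genes only per length of transcript, and the order of the 4 genes on that scale differed between the stages in WT tissue. At p6 the means were 34.3 normalized CPM per kb for Glycam1, 27.4 for Spp1, 19.9 for Cel and 12.1 for Wap, and all neighbours in this order overlapped. At p18 Glycam1 stood at 23408 per kb (17752 to 28213), Wap at 12908 (7689 to 19424), Spp1 at 1700 (940 to 2654) and Cel at 157 (103 to 185). Only the ranges of Glycam1 and Wap overlapped there. Csn2, which encodes beta-casein, had 17228 per kb at p18 (15236 to 18456), a range that overlapped those of Glycam1 and Wap, and the luminal keratin Krt18 had 191 (144 to 220), with a range that overlapped that of Cel. Wap was therefore the lowest of the 4 means at p6 and the second at p18. In ΔSE tissue at p18 the order of the means was the same, with 14247 for Glycam1, 4683 for Wap, 1261 for Spp1 and 140 for Cel.

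In ΔSE tissue all 4 genes rose as well, with larger fold changes for Spp1 and Cel than in WT tissue. Wap measured 2.94, 0.61, 0.84 and 11.7 normalized CPM at p6 and 4252, 3356, 1459.8 and 1253 at p18. The 3 lowest p6 libraries were under 3 and replicate 4 above them. The log2 rise was 9.29 (SE 0.90, adjusted p = 2.2e-06, edgeR).
Glycam1 measured 13.7, 4.91, 5.63 and 12.2 at p6 and 12770.1, 11118, 6271 and 5629.7 at p18, which is a log2 rise of 9.93 (SE 0.57, adjusted p = 2.6e-08, edgeR). Its stage contrast in ΔSE tissue was thus close to that in WT tissue.
Spp1 measured 4.25, 3.63, 1.98 and 2.82 at p6 and 3167, 2448, 1249.5 and 735 at p18, a log2 rise of 9.21 (SE 0.81, adjusted p = 1.1e-06, edgeR), against 5.96 in WT tissue.
Cel measured 4.74, 3.17, 2.97 and 3.30 at p6 and 431, 371, 167 and 183 at p18, a log2 rise of 6.33 (SE 0.74, adjusted p = 1.2e-05, edgeR), against 2.98 in WT tissue. All 4 genes were called and none overlapped between stages, beside 35.6% of all genes called (17.3% higher) and 18.8% without overlap in the upward direction, and their ranks by fold were 5 for Wap, 3 for Glycam1, 7 for Spp1 and 27 for Cel.

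Whether the rise differed between genotypes was tested by the interaction of genotype and stage, in which 0.151% of all genes were called. None of the 4 genes was called in edgeR, although 2, Spp1 and Cel, had an unadjusted p under 0.05 (16.6% of all genes). DESeq2 called both, as it did 597 of 17844 genes. The rise in ΔSE tissue exceeded that in WT tissue by 3.25 on the log2 scale for Spp1 (SE 0.91, adjusted p = 0.114, edgeR; DESeq2 0.0293) and by 3.35 for Cel (SE 0.94, adjusted p = 0.114, edgeR; DESeq2 0.046). For Wap the difference was -0.78 (SE 1.00, adjusted p = 0.743, edgeR) and for Glycam1 0.51 (SE 0.61, adjusted p = 0.715, edgeR). Without WT replicate 2 at p6 the differences of Spp1 and Cel were 3.78 and 3.95 and both were called (adjusted p = 0.00971 and 0.0005, edgeR), in a fit that called 1036 of 17732 genes. Without WT replicate 1 these differences were 1.92 and 3.02, with no call (adjusted p = 0.3 and 0.225, edgeR), beside 7 of 17769 genes called. No other single removal gave a call among the 4 genes. Without ΔSE replicate 4 at p6 that of Wap turned to 0.71, with no call.

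At p6, before the bulk of secretory expression, the means of Spp1 and Cel were lower in ΔSE tissue than in WT tissue. The WT libraries spread widely, with replicate 2 the lowest of them for both genes. Spp1 averaged 41.3 ± 44.1 normalized CPM in WT tissue (SD, n = 3) and 3.17 ± 0.99 in ΔSE tissue (SD, n = 4), so that the ΔSE mean was 7.67% of the WT mean. No ΔSE library reached the lowest WT library, as was true in this direction for 4.99% of all genes. The log2 fold change was -3.68 (SE 0.68, adjusted p = 0.025, edgeR), in a comparison that called 1.03% of all genes (0.527% lower).
Cel averaged 41.0 ± 33.9 in WT tissue (SD, n = 3) and 3.55 ± 0.81 in ΔSE tissue (SD, n = 4), 8.65% of WT, with a log2 fold change of -3.52 (SE 0.70, adjusted p = 0.0337, edgeR). The groups overlapped, since WT replicate 2 held 1.99 and lay under every ΔSE library, while WT replicates 1 and 3 lay far above the highest ΔSE value.
Glycam1 (21.6 ± 12.8 against 9.10 ± 4.48, SD, n = 3 and n = 4) had a log2 fold change of -1.23 (SE 0.43, adjusted p = 0.159, edgeR) and Wap (6.65 ± 3.21 against 4.01 ± 5.21, SD, n = 3 and n = 4) one of -0.68 (SE 0.74, adjusted p = 0.697, edgeR). In Wap, ΔSE replicate 4 exceeded every WT library and the other 3 ΔSE libraries lay below all of them, replicate 1 only just (2.94 against 2.95). ΔSE replicate 4 also held 201 reads of Csn1s2b (9.77 normalized CPM, WT 1.59 to 4.84), against 0 to 2 in the other ΔSE libraries at p6. For Csn3 it held 118 reads (5.73 normalized CPM, WT 44.7 to 409), against 0 to 12. What sets this library apart was not tested. Without ΔSE replicate 4 the log2 fold change of Wap was -2.15, still with no call (adjusted p = 0.201, edgeR).

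The 2 calls at p6 rested on few libraries. Fitted on the p6 libraries alone, Spp1 and Cel had nearly the same log2 fold changes (-3.70 and -3.54) but adjusted p of 0.237 and 0.267 (edgeR), and no gene of all was called. Without WT replicate 2, both calls held and Glycam1 was called as well (-1.51, adjusted p = 0.0415, edgeR), in a fit that called 1767 of 17732 genes. Without WT replicate 1 neither Spp1 nor Cel was called, with log2 fold changes of -2.35 for Spp1 and -3.19 for Cel, and both calls were also lost without any one of ΔSE replicates 2, 3 and 4 (adjusted p = 0.0609 to 0.1 for Spp1 and 0.0736 to 0.12 for Cel, edgeR). Over all genes, 12 of 17769 were called without WT replicate 1. The counts without ΔSE replicates 2, 3 and 4 were 52 of 17706, 12 of 17766 and 8 of 17732. The call of Cel was further lost without WT replicate 3 at p6 (log2 -3.06), and without ΔSE replicate 2 or WT replicate 2 at p18, with the log2 fold change unmoved at -3.52. At p6 the macrophage markers (6 genes), which bear on Spp1, summed to 116 to 338 in WT tissue and 303 to 410 in ΔSE tissue, and the luminal markers had the ranges given above. Of the 6 luminal markers, 1 was called lower in ΔSE tissue and 5 were not called, beside 0.527% of all genes called lower. Among these markers, Elf5 measured 37.5 to 160 normalized CPM in WT tissue and 29.0 to 51.6 in ΔSE tissue, which overlapped. Adipocyte markers summed to 1117 to 1818 in WT and 1771 to 3424 in ΔSE tissue, and skeletal muscle markers to 880 to 2072 and 39.4 to 3350. Per read of Krt18, Spp1 had 0.0373 to 0.573 reads in WT tissue and 0.0137 to 0.0267 in ΔSE tissue, again without overlap, and Cel had 0.00969 to 0.451 and 0.0206 to 0.0313. The p6 levels of Csn2 itself were 22.3 to 934 normalized CPM per kb in WT tissue, against 8.82 to 36.5 with the deletion. Not per kb, Csn2 measured 29.6 in WT replicate 2, 1241 and 1010 in WT replicates 1 and 3, and 11.7 to 48.5 in ΔSE tissue. Csn1s2a likewise measured 29.1 in WT replicate 2, 887 and 931 in WT replicates 1 and 3, and 10.6 to 32.2 in ΔSE tissue. Wap did not share this split, as WT replicate 2 was its highest WT library (8.75). What sets WT replicate 2 apart was not tested. Per read of Csn2, Cel had more reads in ΔSE tissue (0.0978 to 0.271) than in WT tissue (0.0469 to 0.0671). These groups did not overlap, and the exact two-sided permutation p was 0.0571, the smallest that 4 against 3 libraries allow (0.228 adjusted over 8 ratios). The part of these cell types in the differences was not tested further.

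At p18 none of the 4 genes was called between ΔSE and WT tissue in edgeR or DESeq2, in a comparison that called 0.314% of all genes, and Wap alone had an unadjusted p under 0.05 (0.0441), as 12.3% of all genes did. The ΔSE mean of Wap was 36.3% of the WT mean (2580 ± 1462 against 7112 ± 3292 normalized CPM, SD, n = 4 and n = 3), with a log2 fold change of -1.46 (SE 0.67, 95% interval -2.78 to -0.15, adjusted p = 0.39, edgeR). The groups met at a single point, where the highest ΔSE library (4252) just passed the lowest WT library (4236). Glycam1 stood at 60.9% of WT (log2 -0.72, SE 0.42, interval -1.53 to 0.10, adjusted p = 0.505, edgeR). Spp1 stood at 74.2% (log2 -0.43, SE 0.60, interval -1.61 to 0.74, adjusted p = 0.833, edgeR). Cel stood at 89.0% (log2 -0.17, SE 0.62, interval -1.38 to 1.04, adjusted p = 0.949, edgeR), so that the intervals leave room for changes of about 2-fold either way in Cel. In a fit of the p18 libraries alone Wap was called (log2 -1.43, adjusted p = 0.0406, edgeR), beside 824 of 16547 genes. The 2 WT libraries with muscle markers, replicates 2 and 3, had the lower Wap levels and replicate 1, with few such reads, the highest. The part of muscle RNA in these levels was not tested.

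**Figure D3:**
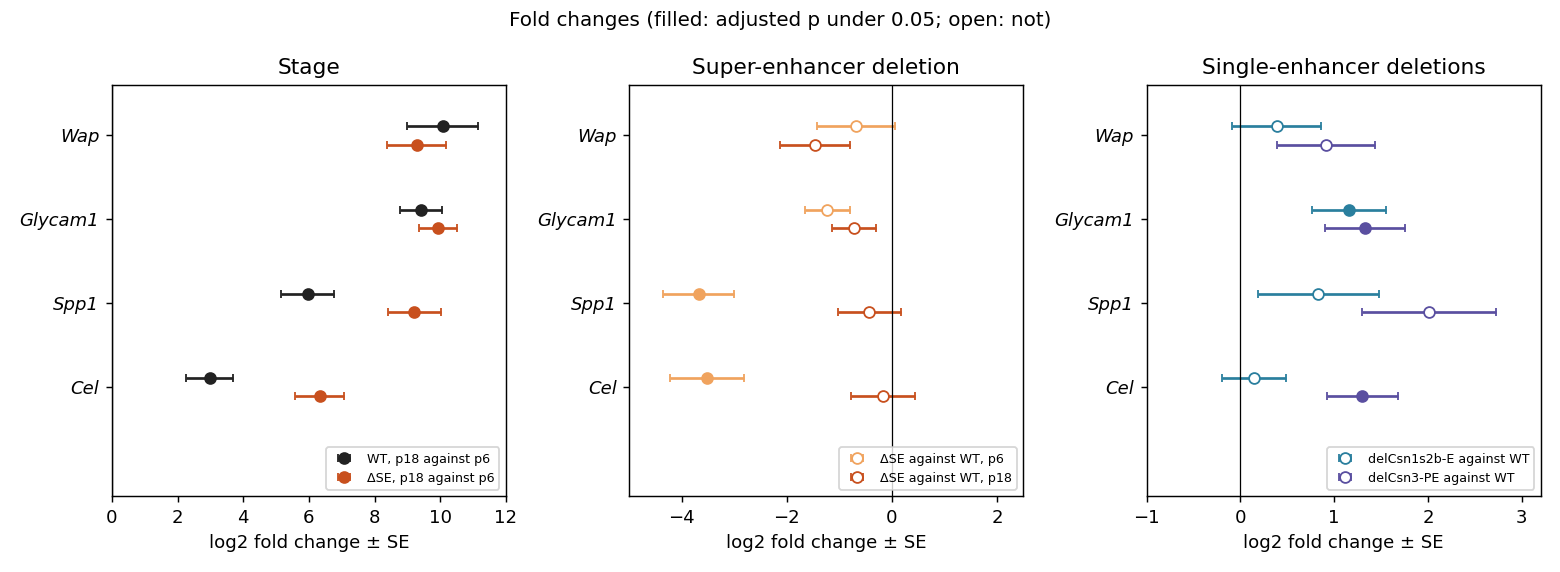
Log2 fold changes with SE of the 4 genes between stages (left), between ΔSE and WT tissue (middle) and between the single-enhancer lines and WT tissue (right); filled points have an adjusted p under 0.05. The WT and ΔSE stage contrasts lie within an SE of each other for Wap and Glycam1 and farther apart for Spp1 (5.96 and 9.21) and Cel (2.98 and 6.33).

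At p18 the ΔSE libraries fell in nearly one order for the 4 genes. Replicates 1 and 2 were the highest and replicates 3 and 4 the lowest for all 4 genes, and as a percent of the WT mean the 4 libraries in replicate order were 59.8, 47.2, 20.5 and 17.6 for Wap, 86.9, 75.6, 42.7 and 38.3 for Glycam1, 124, 95.6, 48.8 and 28.7 for Spp1, and 133, 115, 51.7 and 56.5 for Cel. In every one of these libraries Wap was the lowest of the 4 relative to WT. The genes were therefore also compared as ratios within a library, which do not depend on scaling. These pairs were looked at after the values were seen.

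Wap per Spp1 was 2.68, 2.82 and 2.99 reads in WT tissue at p18 and 1.34, 1.37, 1.17 and 1.70 in ΔSE tissue. Wap per Cel was 28.4, 16.8 and 20.0 in WT tissue and 9.86, 9.05, 8.73 and 6.86 in ΔSE tissue. Wap per Glycam1 was 0.604, 0.420 and 0.380 in WT tissue and 0.333, 0.302, 0.233 and 0.223 in ΔSE tissue. In each of these 3 ratios all ΔSE libraries were below all WT libraries, and the mean ratio on the log2 scale differed by -1.03, -1.31 and -0.77 (ΔSE less WT). Glycam1 per Cel was also lower without overlap (39.9 to 52.7 against 29.6 to 37.5), whereas Glycam1 per Spp1 (4.43 to 7.87 against 4.03 to 7.66) and Spp1 per Cel (5.94 to 10.6 against 4.02 to 7.47) overlapped. With 4 against 3 libraries an exact two-sided permutation test cannot go below p = 0.0571, which the 4 ratios without overlap reached (Benjamini-Hochberg adjusted over the 6 pairs, 0.0856), so that no ratio could pass the threshold. Wap per read of Csn2, a gene of the locus with the deletion, was 0.209 to 0.448 in WT tissue and 0.0997 to 0.201 in ΔSE tissue, again without overlap (exact permutation p = 0.0571, adjusted over 8 ratios 0.456), while Glycam1, Spp1 and Cel per read of Csn2 overlapped. Per read of Krt18, Wap at p18 had 13.4 to 51.7 reads in WT tissue and 4.03 to 15.3 in ΔSE tissue, which overlapped.
At p6 all 6 pair ratios overlapped between genotypes. Wap per Spp1 was 0.0904, 1.14 and 0.118 in WT tissue and 0.692, 0.169, 0.423 and 4.14 in ΔSE tissue.

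**Figure D4:**
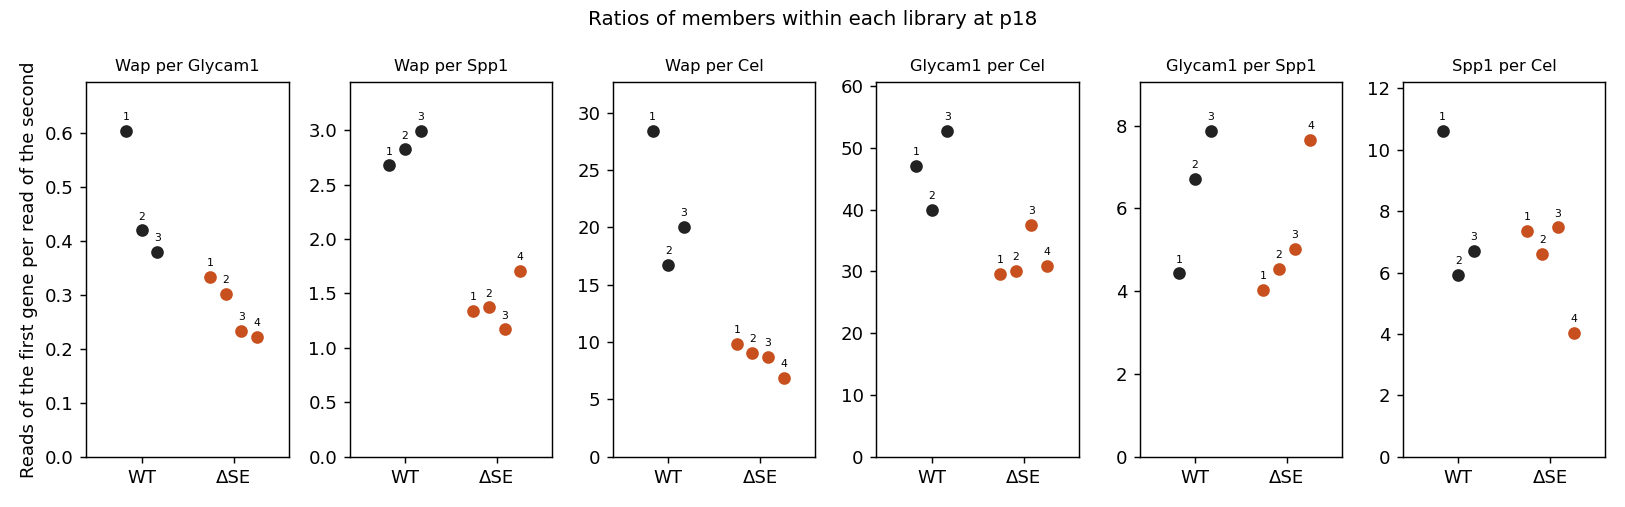
Reads of one gene per read of another within each WT (black) and ΔSE (orange) library at p18, for all 6 pairs of the 4 genes; points carry the replicate number and the y axes start at 0. Wap per Glycam1, per Spp1 and per Cel and Glycam1 per Cel are lower in all ΔSE libraries, the other 2 ratios overlap.

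The single-enhancer lines were compared with WT tissue at p18 in a model of their own with 17125 genes and its own scaling. They form another set of libraries with no WT tissue of that set, with the uncertain stage given above and a far lower share of Rn45s, so line and set cannot be told apart, and 32.3% of all genes were called for delCsn1s2b-E (17.2% higher) and 25.2% for delCsn3-PE (13.7% higher). The level of the 4 genes was not below WT tissue in the mean of either line. They took 3.63 to 8.93% of the reads outside Rn45s in these 5 libraries.

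Glycam1 was called higher in both lines. It measured 18274, 15937 and 11445.5 normalized CPM in WT tissue on this scale, 22436, 45600.3 and 33694 in delCsn1s2b-E and 52072 and 24329 in delCsn3-PE. The lowest library of either line was thus above the highest WT library, as was true of 25.0% of all genes in delCsn1s2b-E and 27.3% in delCsn3-PE. The log2 fold changes were 1.16 (SE 0.39, adjusted p = 0.045, edgeR) and 1.33 (SE 0.43, adjusted p = 0.0447, edgeR).
Cel measured 389, 399.5 and 217 in WT tissue, 253, 435 and 426 in delCsn1s2b-E and 1168 and 483 in delCsn3-PE. It was called in delCsn3-PE (log2 1.30, SE 0.37, adjusted p = 0.0288, edgeR) and not in delCsn1s2b-E (log2 0.15, SE 0.34, adjusted p = 0.774, edgeR).
Spp1 measured 4126, 2372 and 1455 in WT tissue, 1988, 8477 and 3675 in delCsn1s2b-E and 18117 and 3254 in delCsn3-PE. Replicate 1 of delCsn3-PE was 5.57-fold above replicate 2, and neither line was called (log2 0.83, SE 0.65, adjusted p = 0.358, and log2 2.01, SE 0.71, adjusted p = 0.061, edgeR).
Wap measured 11039, 6693 and 4349 in WT tissue, 4962, 11787.5 and 12126 in delCsn1s2b-E and 20522 and 7222 in delCsn3-PE, with overlap in both cases (log2 0.39, SE 0.48, adjusted p = 0.574, and log2 0.91, SE 0.53, adjusted p = 0.226, edgeR).

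The calls in delCsn3-PE were lost without replicate 1, when the log2 fold changes of Glycam1 and Cel were 0.67 and 0.53, while that of Spp1 was 0.29 and that of Wap was -0.03. They were also lost without any one WT library (log2 1.14 to 1.46 for Glycam1 and 1.05 to 1.43 for Cel), and that of Glycam1 without delCsn1s2b-E replicates 1 or 3 (adjusted p = 0.0549 and 0.07, edgeR). The call of Glycam1 in delCsn1s2b-E was lost without delCsn1s2b-E replicates 2 or 3 (log2 0.86 and 1.16) and without any one of the 3 WT libraries (log2 0.96 to 1.29). Between the 2 lines, which share a set, 0.181% of all genes were called and none of the 4 genes, in edgeR or in DESeq2, with Cel alone at an unadjusted p under 0.05 (0.0108), beside 5.02% of all genes. The log2 difference of delCsn1s2b-E from delCsn3-PE was -1.15 for Cel (95% interval -1.89 to -0.42, adjusted p = 0.639, edgeR), -1.18 for Spp1 (-2.57 to 0.21, adjusted p = 1, edgeR), -0.53 for Wap (-1.56 to 0.51, adjusted p = 1, edgeR) and -0.17 for Glycam1 (-1.02 to 0.68, adjusted p = 1, edgeR). Muscle markers summed to 1.36 and 24.2 in delCsn3-PE and 9.92 to 442 in delCsn1s2b-E, and luminal markers to 1995 to 2355 and 1802 to 2213. Adipocyte markers summed to 1522 to 2007 in delCsn3-PE and 1382 to 2245 in delCsn1s2b-E, both above the 1190 to 1293 of WT tissue. Macrophage markers summed to 186 to 209 in delCsn3-PE and to 142 to 189 in delCsn1s2b-E, the latter below the 199 to 254 of WT tissue. The part of these cell types in the lines' values was not tested.

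**Figure D5:**
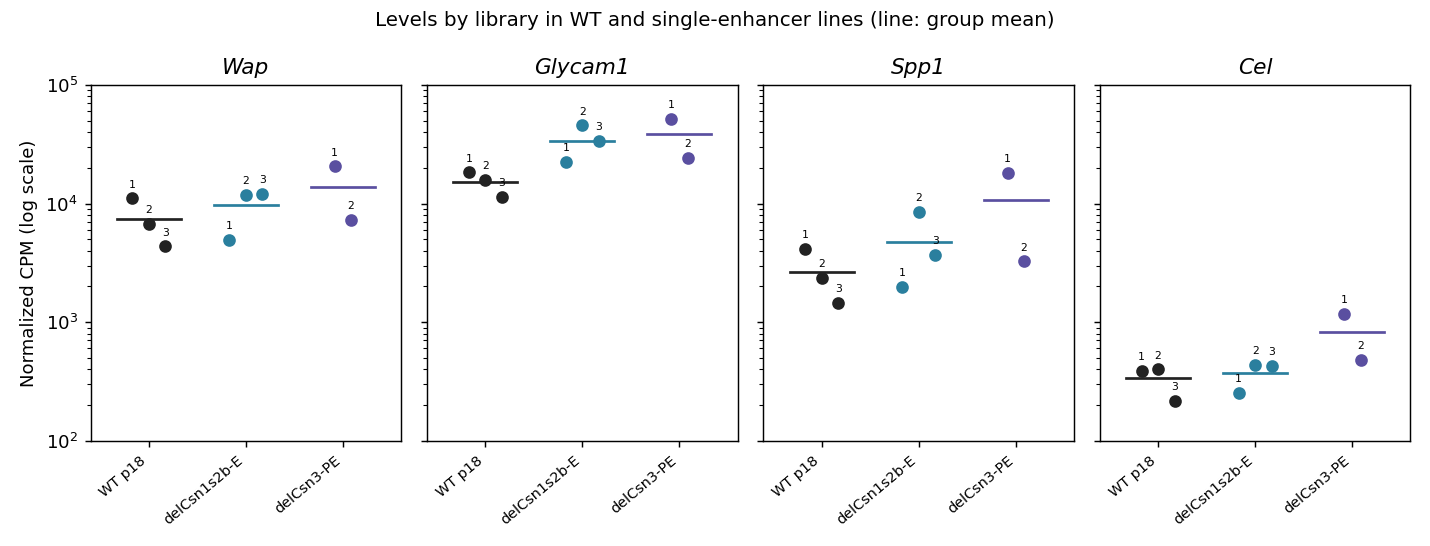
Normalized CPM (log axis) of the 4 genes in WT tissue at p18 (black) and in the delCsn1s2b-E (blue) and delCsn3-PE (purple) libraries; points carry the replicate number and lines are group means. Replicate 1 of delCsn3-PE is the highest library for each gene, with 18117 for Spp1.

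Genes with profiles most like those of the 4 members were looked for over the 14 WT and ΔSE libraries, by the root mean square difference of centred log2(normalized CPM + 1) values among 8435 genes with a mean of at least 10. This is a description, since the libraries share their stages. Wap and Glycam1 were nearest to each other (0.64). Both had Lao1, an L-amino acid oxidase found in milk, as the nearest other gene (0.95 for Wap and 0.69 for Glycam1), followed by Olah, which releases medium-chain fatty acids from fatty acid synthase, and then by Fabp3 for Wap and the casein Csn1s2a for Glycam1. For Spp1 the nearest were Lao1 (0.69), Olah (0.90) and Pigr, the receptor that carries IgA into milk (0.91). Cel stood apart from the other 3 in its neighbours, which were Btn1a1, the butyrophilin of the milk fat globule (0.40), Slc28a3, a nucleoside transporter (0.57), and Gjb6, a connexin (0.74). Lao1 and Btn1a1 kept the first place for Wap, Glycam1 and Cel with a pseudocount of 0.1 or 5 in place of 1, and for Spp1 the first was Lalba at 0.1 and Lao1 at 5.

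Other secreted milk proteins outside the casein locus (20 genes, none of them a member) were counted in the same tests. In WT tissue 12 were higher and 1 lower at p18 (12.4% of all genes were called lower), with a median log2 fold change of 1.30 against -0.05 over all genes. The called genes included Lpo, a peroxidase of milk (log2 5.92), Folr1, a folate carrier (4.28), Xdh, a fat globule enzyme (3.12), and Trf, transferrin (3.29), and the gene that fell was Igfbp5, which binds insulin-like growth factors (-1.12). In ΔSE tissue 14 were higher and 2 lower (Cst3 by -0.75 and Pthlh by -2.15 on the log2 scale), beside 18.3% of all genes called lower. At p6, 4 were lower in ΔSE than in WT tissue and none higher (Lcn2 by -1.47, Igfbp5 by -0.88, Btn1a1 by -3.02 and Pigr by -3.42 on the log2 scale), beside 0.527% of all genes called lower, with a median of -0.97 against 0.01 over all genes. WT replicate 2 lay within the ΔSE range for Btn1a1 (11.6, ΔSE 8.70 to 24.8) and Pigr (0.796, ΔSE 0.456 to 2.94). It lay above that range for Lcn2 (50.2, ΔSE 26.9 to 35.7) and Igfbp5 (1012, ΔSE 618 to 852). DESeq2 called 12 of the 20 at p6, beside 916 of 17844 genes. In edgeR 14 had an unadjusted p under 0.05, a count for which the share over all genes is not given here. At p18 no gene of this list was called between ΔSE and WT tissue in edgeR or DESeq2 (median -0.29 against -0.04). An unadjusted p under 0.05 in edgeR was found for 6, beside 12.3% of all genes. Against WT tissue 8 of the 20 were higher in delCsn3-PE and none lower, beside 13.7% of all genes called higher. They included the acute phase genes Saa3 (5.04) and Lcn2 (1.24). Saa3 held only 4, 0 and 2 reads in the WT libraries at p18, so the size of its change against WT tissue is uncertain. In delCsn1s2b-E 3 of the 20 were higher (B2m 0.78, Cp 0.85 and Pigr 0.53), near the 17.2% of all genes called higher, and 1 was lower (Cst3 -0.40). Saa3 was the 1 gene called between the lines (-3.90).

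Genes related to the 4 members were counted against the share called over all genes, 29.6% between stages in WT tissue and 35.6% in ΔSE tissue. Of the WFDC family of Wap (12 genes, 10 tested, Slpi shared with the list above), Wfdc18 and Wfdc3 rose in WT tissue at p18 (log2 4.19 and 4.97) and Wfdc2 fell (-2.79), so that 3 of 10 were called, near that share, and in ΔSE tissue 3 rose (Wfdc18, Wfdc3 and Wfdc5 by 3.83, 5.10 and 4.14) and 3 fell (Wfdc2, Wfdc1 and Wfdc21, with -3.69, -2.15 and -1.55). Wfdc5 held 1, 0, 0 and 0 reads in ΔSE tissue at p6 and 1, 10, 0 and 8 at p18, so its rise rests on few reads. The acidic phosphoprotein cluster beside Spp1 had 3 of 6 genes tested, of which the flanking Pkd2 was called lower at p18 in both genotypes (-0.33 and -0.37). Among the lipases (12 genes, 7 tested), Lipa, the lysosomal acid lipase, rose with Cel (2.46 in WT and 3.36 in ΔSE tissue), the carboxylesterases Ces1f and Ces1d and the hormone-sensitive lipase Lipe fell in both genotypes, and lipoprotein lipase, Lpl, was called higher in WT tissue (0.74) and lower in ΔSE tissue (-0.48). Of 7 receptors of osteopontin, Cd44 fell in both genotypes (-1.22 and -1.35) and so did Itga9 (-0.50 and -0.63), while Itgb1 rose in WT tissue (0.46) and 5 receptors fell and none rose in ΔSE tissue. Between ΔSE and WT tissue no gene of these 4 families was called in edgeR at either stage. At p18 the genes at an unadjusted p under 0.05 (12.3% of all genes) were 3 of the WFDC family, 1 of the cluster of Spp1, 1 lipase and 0 receptors, with none called by DESeq2. The same counts at p6 were 2, 1, 4 and 3, for which the share over all genes is not given here. By DESeq2, 2 lipases and 1 receptor were called at p6, beside 916 of 17844 genes. In delCsn3-PE against WT tissue 3 WFDC genes (Wfdc18, Wfdc17 and Slpi), 3 lipases (Ces1d, Ces1f and Lipa) and 1 receptor (Itgb1) were called higher and none lower, with log2 fold changes of 0.63 to 1.28, beside 25.2% of all genes called. In delCsn1s2b-E, where 32.3% were, Wfdc18 (0.85), the same 3 lipases (0.72 to 1.01), Itgb1 (0.61) and Itgav (0.50) were called higher, and Lipe (-0.84) and Itga9 (-0.41) lower.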

How the data were processed

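Total RNA from frozen mammary tissue was depleted of ribosomal RNA and sequenced in paired-end mode from stranded libraries. The deposited values are raw counts per gene, for which, per the labels and the methods of the study, the authors trimmed reads with Trimmomatic, aligned them to mm10 with STAR and counted them with HTSeq. The gene annotation is not given in the sources used here. RNA kits differ between the labels and the methods. The authors then used DESeq2 and RUVSeq, steps that the counts do not include. Entries that name no gene occurred in the single-enhancer libraries only (no feature 13.2 to 20.9%, no unique alignment 8.57 to 9.62%, ambiguous 0.672 to 0.821%) and were left out.

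Counts of 14 WT and ΔSE libraries (4 groups) and of 8 libraries at p18 (3 groups) were fitted in edgeR (version 4.0.16, R version 4.3.3) with TMM factors, estimateDisp, glmQLFit and glmQLFTest, after removal of genes whose reads summed to under 10. Standard errors were derived from the F statistic, and 95% intervals are 1.96 SE wide on each side. Tests were adjusted over all genes. DESeq2 (version 1.42.0), other scalings and filters, single factors of unwanted variation, a replicate block and the removal of each library were alternatives. Scripts were tested on simulated counts. Named genes are the 4 members, up to 4 called genes of each list with the smallest p in a comparison, genes singled out by a count of 5 or fewer, and 3 nearest genes for each member. The ratios between members were chosen after their values were seen. The members and lists were chosen with earlier results of these data known. Replicates are independent biological samples per the methods of the study, with no animal named. Depth was 12335272 to 30329601 reads in genes. A count of 3, taken as the floor, corresponds to at most 0.276 normalized CPM in the WT and ΔSE libraries, and no member was below it.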

Additional observations from a re-analysis of the deposited data

How the results depend on the processing

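The rises from p6 to p18 kept their direction in all settings, and in WT and ΔSE tissue their calls held except with 1 factor of unwanted variation, estimated from the 14 libraries. That factor was positive in every p6 library and negative in every p18 library, so it cannot be told apart from stage. With it 2 of the 4 genes were called in WT tissue (Spp1 3.43 and Cel 0.0543 were not) and 0 in ΔSE tissue (Wap 7.68, Glycam1 6.61, Spp1 4.95 and Cel 1.47). It also left 0 calls between ΔSE and WT tissue at p6 (Spp1 -2.89 and Cel -2.63) and turned the interaction of Glycam1 to -0.67. The factor estimated from the 8 libraries left 0 calls in delCsn1s2b-E and 0 in delCsn3-PE. In fits of only the 2 groups compared, 0 genes were called at p6 (Spp1 -3.70, Cel -3.54), 1 at p18 between ΔSE and WT tissue (Wap -1.43) and 1 in delCsn3-PE. DESeq2 called 2 interactions. DESeq2 size factors left 0 calls in delCsn1s2b-E and 1 in delCsn3-PE, filterByExpr 0 and 1, and library totals alone 4 in delCsn3-PE. The cause of these differences was not tested.

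A replicate block left 1 call at p6 (Spp1 -3.14, while Cel had -3.32), 0 in delCsn1s2b-E (Glycam1 1.20) and 0 in delCsn3-PE (Glycam1 1.23, Cel 1.21). The numbers do not pair the samples, since deviations of same-numbered samples correlated over 0.1 in 5 of 20 pairs (r -0.67 to 0.38) and 4 of 20 correlated best with their own number.

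Leaving out 1 library at a time gave log2 fold changes at p6 of -4.18 to -2.35 for Spp1, -4.10 to -3.06 for Cel and -1.51 to -0.64 for Glycam1, with 0 to 3 calls. At p18 ΔSE against WT tissue gave -0.79 to 0.0446 for Spp1 and -0.43 to 0.0204 for Cel. The interaction gave -1.13 to 0.71 for Wap, -0.0777 to 0.82 for Glycam1, 1.92 to 3.78 for Spp1 and 2.92 to 3.95 for Cel, with 0 to 2 calls. Against WT tissue delCsn1s2b-E gave -0.11 to 0.36 for Cel with 0 to 1 calls, and delCsn3-PE -0.0295 to 1.48 for Wap with 0 to 3 calls. Between the lines the ranges were -0.62 to 0.48 for Glycam1, -1.94 to 0.54 for Spp1 and -1.09 to 0.42 for Wap.

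Over all genes, 56 calls between ΔSE and WT tissue at p18 became 824 with only the 2 groups, 496 with DESeq2, 102 with no filter and 13 with library totals. At p6, 183 became 0 with only the 2 groups, 916 with DESeq2, 277 with no filter, 37 with library totals, 26 with the replicate block and 9 with the factor. For the interaction, 27 became 597 with DESeq2 and 94 with no filter. Calls between the stages in WT tissue went from 5279 to 3478 with only the 2 groups and 117 with the factor, those in ΔSE tissue from 6348 to 0 with the factor, and those in delCsn3-PE from 4321 to 1963 with the block. Between the lines 31 became 99 with DESeq2, 58 with no filter and 9 with only the 2 groups. Library totals moved the median over all tested genes (log2 scale) from -0.05 and -0.07 to -0.42 and -0.65 between stages in WT and ΔSE tissue. In delCsn1s2b-E and delCsn3-PE the median moved to 0.40 and 0.42. The calls higher and lower then went from 3068 and 2211 to 763 and 3663 in WT tissue, from 3083 and 3265 to 628 and 7967 in ΔSE tissue, from 2950 and 2576 to 5444 and 874 in delCsn1s2b-E and from 2353 and 1968 to 5103 and 627 in delCsn3-PE. With 2 to 4 libraries a group, single libraries decide the calls at p6 and in the lines, and Wap at p6 rests on as few as 11 reads in a library.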
